A study of Mus musculus with 23 samples.

Results

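Malat1, Neat1, Meg3, Rian, Mirg, Miat and Snhg11 are 7 long noncoding RNAs (lncRNAs) of the mouse. They were measured in RNA precipitated through an epitope-tagged ribosomal protein from spinal cord. They are 7 of the 38924 genes in the deposited tables, and they were picked by name because their counts were lower in precipitates from mice with ChAT-Cre than in precipitates from mice without Cre. That comparison therefore describes them here and is given without a test. The comparisons between genotypes, which did not enter the choice, are tested.

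The libraries fall into 4 groups, all from spinal cord of animals aged 2 weeks on a B6.CgxB6.129 background, and every animal carried a single Rpl22 allele with an HA tag (Rpl+/-). The mutant Cre group (6 libraries) carried ChAT-Cre and 1 copy of the C201R allele of Gars, the glycyl-tRNA synthetase gene (labelled Rpl+/-;Chat+/-;C201R+/-), and the wild-type Cre group (5 libraries) carried ChAT-Cre without that allele (labelled Rpl+/-;Chat+/-;C201R+/+). The mutant no-Cre group (6 libraries) had the Gars allele without Cre (labelled Rpl+/-;Chat+/+;C201R+/-), and the wild-type no-Cre group (6 libraries) had neither (labelled Rpl+/-;Chat+/+;C201R+/+). The series describes the age as before the onset of disease. ChAT-Cre follows the choline acetyltransferase gene, so the tag is switched on in cholinergic cells, which in the cord include motor neurons and other cholinergic neurons. Whole-cord lysate that had been frozen, ground and sonicated was precipitated with an antibody to the tag, and the no-Cre precipitates hold what came down without the tag being switched on. Whether each library is 1 animal is not stated in the labels, and p-values measure the spread between these libraries.

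Long noncoding RNAs are transcribed and often spliced like messenger RNAs but carry no long conserved reading frame, and many of them stay in the nucleus. Malat1 is a very abundant RNA of nuclear speckles, the bodies that store splicing factors, and Neat1 is the scaffold of the neighbouring bodies called paraspeckles. Miat, also called Gomafu, lies in a nuclear compartment of its own in neurons and binds splicing factors. Meg3, Rian and Mirg are expressed from the maternal chromosome of the imprinted Dlk1-Dio3 domain, where Rian is a host of small nucleolar RNAs (snoRNAs) and Mirg a host of microRNAs. Snhg11 is a snoRNA host transcript that is prominent in neurons.

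In the GENCODE M21 annotation of GRCm38, Malat1 (ENSMUSG00000092341) lies at chr19:5795690-5802672 and Neat1 (ENSMUSG00000092274) at chr19:5824708-5845478, both on the minus strand. Meg3 (ENSMUSG00000021268, chr12:109541001-109571726), Rian (ENSMUSG00000097451, chr12:109603940-109661716) and Mirg (ENSMUSG00000097391, chr12:109729764-109749460) follow each other on the plus strand. Miat (ENSMUSG00000097767) is at chr5:112213228-112229395 on the minus strand and Snhg11 (ENSMUSG00000044349) at chr2:158375638-158386145 on the plus strand. The annotation types 5 of the 7 as lincRNA (long intergenic noncoding RNA), Rian as a processed transcript, and Snhg11 as protein-coding. The longest reading frame opening with ATG in the longest annotated transcript had 64 codons in Malat1, 76 in Rian, 89 in Snhg11, 98 in Miat, 101 in Mirg, 126 in Neat1 and 186 in Meg3. Those transcripts ran over 3822 bases in Mirg and 20771 bases in Neat1, with the other 5 in between.

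A pair of transcript stretches shows features by which Malat1 and Miat are known, both on GRCm38 and in the sense of the transcript. In Miat, the capitals mark 3 of the 6 copies of TACTAAC, the branch point sequence that the splicing factor SF1 reads. Of 7040 annotated transcripts of at least 5000 bases, 3 (0.043%) held 6 or more copies on the sense strand, and the longest Miat transcript is itself among them. In Malat1, the capitals mark the last part of the A-rich tract at the end of the mature RNA, and the run of A just before them belongs to it too. That tract folds back on upstream U-rich motifs into a triple helix that protects an end without a poly(A) tail, and the small tRNA-like RNA that is cut off starts just after it.
Miat chr5:112216743-112216812 minus: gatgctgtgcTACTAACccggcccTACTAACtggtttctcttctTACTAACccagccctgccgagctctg
Malat1 chr19:5795973-5796072 minus: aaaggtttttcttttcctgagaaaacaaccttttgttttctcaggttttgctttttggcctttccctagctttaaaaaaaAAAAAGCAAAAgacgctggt

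The transcripts of the imprinted domain are shown by what they carry. RefSeq (GRCm38.p6) places 14 microRNA hairpins with 26 mature arms inside Mirg and 3 hairpins with 6 arms inside Rian. Inside Meg3 it places 3 mature entries at separate positions, miR-1906 from chr12:109544588 and the 5p and 3p arms of miR-770 from chr12:109563710. GENCODE M21 has 2 microRNA genes that overlap Meg3 on its strand. A few mature microRNAs are printed to show what these transcripts are hosts of, with the seed (bases 2 to 8), through which a microRNA picks its targets, in capitals. Only miR-453 and miR-496a-5p of the hosted set had the same seed, GGUUGCC. The mature microRNAs were not measured in these libraries.
miR-770-5p (in Meg3): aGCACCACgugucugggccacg
miR-370-3p (in Rian): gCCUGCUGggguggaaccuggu
miR-134-5p (in Mirg): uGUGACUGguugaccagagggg
miR-382-5p (in Mirg): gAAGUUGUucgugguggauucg
miR-377-3p (in Mirg): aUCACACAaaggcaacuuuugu
miR-410-3p (in Mirg): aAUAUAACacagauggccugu
miR-453 (in Mirg): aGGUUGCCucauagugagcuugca
miR-496a-5p (in Mirg): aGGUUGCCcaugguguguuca
The promoter of Meg3, the most abundant of the 3 per unit of length, is printed because it starts the maternal transcripts of the domain. It runs over chr12:109540746-109541045 on the plus strand and holds the palindrome TGACGTCA, the full cyclic AMP response element, which is in capitals and reads the same on both strands. That motif was found in 588 of 32851 RefSeq promoters of the same length (1.79%).
Meg3 promoter: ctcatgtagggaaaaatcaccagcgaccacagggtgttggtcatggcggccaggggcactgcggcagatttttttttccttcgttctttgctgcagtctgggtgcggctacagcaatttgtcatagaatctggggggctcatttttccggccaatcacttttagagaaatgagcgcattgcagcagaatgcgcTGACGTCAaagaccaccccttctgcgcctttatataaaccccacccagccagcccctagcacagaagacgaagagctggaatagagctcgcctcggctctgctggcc
This promoter held 13 CpG dinucleotides against a median of 7 over all promoters, a second Meg3 start held 1 and the Rian promoter held 0. The promoter entry for Mirg held 10, but it lies at chr12:109734731-109735030, inside the gene as GENCODE annotates it.

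Library totals ran between 9031654 and 19671869 expected counts, of which 5 ribosomal RNA-like genes (mitochondrial ribosomal RNAs and loci that collect nuclear or mitochondrial ribosomal RNA reads) took 50.6% to 95.6%. The counts outside these genes were 2927104 to 6237428 in mutant Cre, 1213587 to 4466014 in wild-type Cre, 594383 to 4886780 in mutant no-Cre and 2170423 to 5582508 in wild-type no-Cre libraries. Protein-coding genes made up 92.8% to 96.8% of those counts in the 11 Cre libraries and 51.5% to 84.3% in the 12 no-Cre libraries. Chat itself averaged 33.7 ± 13.7 CPM (counts relative to library size, scaled by the trimmed mean of M values, TMM) in mutant Cre and 56.1 ± 11.8 CPM in wild-type Cre libraries (SD, n = 6 and 5). Without Cre it averaged 3.12 ± 2.64 CPM in mutants and 2.25 ± 1.88 CPM in wild type (SD, n = 6 each). Its average Cre effect, the mean of the log2 differences in the 2 genotypes, was 4.201 (SE 0.32, edgeR adjusted p = 5.79e-11). Of 13 tested motor neuron and cholinergic genes, 13 rose with Cre, among them Slc10a4 (log2 5.62), a vesicle-associated transporter of cholinergic neurons, and Chodl (4.87), a motor neuron marker. The filter on counts passed 13 of them in the Cre libraries alone and 7 in the no-Cre libraries alone. A gene let in only by the Cre libraries can hardly be lower with Cre, so that count is a description. Gars was higher with Cre (1.81, SE 0.22, adjusted p = 1.13e-07) and stood at 0.26 (SE 0.22, adjusted p = 0.532) between mutant Cre and wild-type Cre libraries. Rpl22 stood at -0.45 with Cre (adjusted p = 0.0348), a direction that turned to 0.32 with library totals alone.

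Malat1 was by far the most abundant of the 7, with Cre and without. In mutant Cre libraries it had 1816 CPM at the lowest, 2537 at the median and 5784 at the highest, and the 5 wild-type Cre libraries had 1426, 2783, 2720, 3816 and 2538 CPM. In mutant no-Cre libraries it had 13447, 22811 and 80317 CPM (lowest, median, highest), and in wild-type no-Cre libraries 18751, 26030 and 168528 CPM. The lowest library without Cre stood 2.32-fold above the highest library with Cre, so the groups did not overlap on this scale. The choice used this contrast, so such a separation only describes these RNAs. How many of all genes separate in the same way was not counted, and this limit holds for the separations of the other members given below. The average Cre effect was -3.82 on the log2 scale (SE 0.43), a level 14.1-fold lower with Cre. As a share of the counts outside the ribosomal RNA genes, Malat1 took 1.02% to 2.85% in mutant Cre and 0.592% to 1.79% in wild-type Cre libraries, against 4.37% to 23.01% in mutant no-Cre and 7.21% to 36.6% in wild-type no-Cre libraries. At 36.6% the Wilson 95% interval, which covers counting error only, was 36.6% to 36.7%. In TPM, a share of transcripts that accounts for length, Malat1 ranked between 6 and 10 in mutant Cre, 7 and 39 in wild-type Cre, 5 and 12 in mutant no-Cre and 5 and 9 in wild-type no-Cre libraries. It stayed among the 39 highest of 38924 genes in every library.

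Neat1 was scarce on the same scale, and most so with Cre. Its CPM was 2.97, 5.03 and 6.71 in mutant Cre libraries (lowest, median, highest), and 7.34, 5.79, 5.63, 4.99 and 7.62 in the wild-type Cre libraries. Without Cre it was 22.6, 36.2 and 69.9 CPM in mutants and 14.5, 47.2 and 66.6 CPM in wild type. The closest libraries of the Cre and no-Cre sides were 1.91-fold apart, and the average Cre effect was -2.93 (SE 0.23), or 7.64-fold lower with Cre. Miat, the other nuclear-compartment RNA, had 7.51, 9.55 and 12.1 CPM in mutant Cre libraries and 8.93, 11.4, 10.5, 14.5 and 15.9 CPM in wild-type Cre libraries. It had 47.0, 56.3 and 67.9 CPM in mutant no-Cre and 65.0, 82.0 and 198 CPM in wild-type no-Cre libraries, again without overlap between Cre and no Cre. Its average Cre effect of -2.85 (SE 0.20, 7.22-fold lower) was the one nearest to 0 among the 7. An lncRNA gene on the opposite strand, Gm26953, overlaps Miat, and since a stranded count is not stated in the sources used here, reads of the pair cannot be told apart.

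Of the imprinted domain, Meg3 was the most abundant. It had 206, 299 and 496 CPM in mutant Cre libraries (lowest, median, highest) and 189, 253, 245, 425 and 295 CPM in wild-type Cre libraries. The no-Cre libraries held 1787, 2350 and 5047 CPM in mutants and 2302, 2851 and 9895 CPM in wild type. Every no-Cre library was at least 3.6-fold above the highest Cre library, and the average Cre effect was -3.49 (SE 0.28, 11.3-fold lower). Rian had 3.99, 8.91 and 30.5 CPM in mutant Cre and 5.56, 12.6, 5.96, 14.1 and 7.73 CPM in wild-type Cre libraries. It had 58.1, 77.3 and 145 CPM in mutant no-Cre and 88.6, 168 and 218 CPM in wild-type no-Cre libraries. The groups did not overlap although mutant Cre replicate 5 stood apart at 30.5 CPM, and the average Cre effect was -3.56 (SE 0.31, 11.8-fold lower). Mirg was the scarcest. It had 0.314, 0.963 and 1.31 CPM in mutant Cre libraries and 2.18, 1.18, 0.0828, 1.36 and 1.25 CPM in wild-type Cre libraries. Against this stood 4.88, 10.3 and 27.2 CPM in mutant no-Cre and 7.36, 10.7 and 18.4 CPM in wild-type no-Cre libraries. The Cre values rest on 5 to 35 counts a library in mutants and 1 to 27 in wild type, and the average Cre effect was -3.58 (SE 0.35, 11.9-fold lower).

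Snhg11, the snoRNA host, had 20.0, 44.2 and 72.5 CPM in mutant Cre libraries and 67.3, 57.8, 45.4, 54.0 and 44.8 CPM in wild-type Cre libraries. It had 279, 457 and 538 CPM in mutant no-Cre and 300, 537 and 1172 CPM in wild-type no-Cre libraries. At 3.85-fold, the gap between the lowest no-Cre and the highest Cre library was the widest of the 7, and the average Cre effect was -3.41 (SE 0.24, 10.6-fold lower). The snoRNAs annotated inside the hosts were close to absent from the tables, with 3.2 counts over the 23 libraries for the 2 inside Snhg11 and 0 for the 13 inside Rian.

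**Figure D1:**
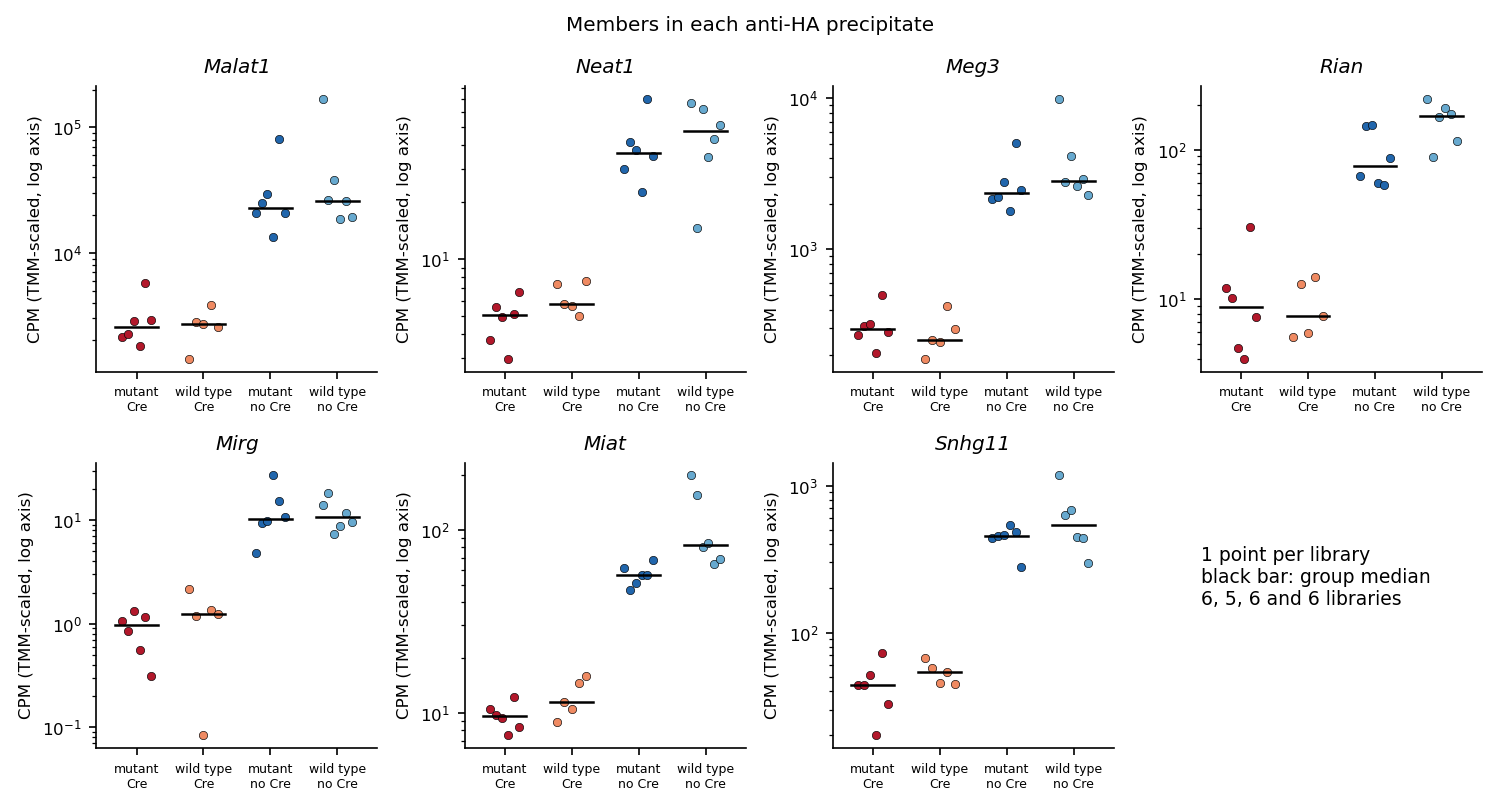
TMM-scaled CPM of each of the 7 RNAs (log axis), 1 point per library, with the black bar at the median of the 6 mutant Cre, 5 wild-type Cre, 6 mutant no-Cre and 6 wild-type no-Cre libraries. In every panel the Cre libraries lie below all no-Cre libraries on this scale, and the 2 Cre groups overlap. The RNAs were chosen by this contrast and not tested in it. Over all tested genes 34.7% were called lower with Cre, and how many separate in this way was not counted. In TPM the mutant Cre and mutant no-Cre libraries overlapped for each of the 7.

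By TPM, the order of the group medians was the same at the top in all groups. In mutant Cre libraries the medians were 3328 TPM for Malat1, 79.97 for Meg3 and 41.2 for Snhg11, and in wild-type Cre libraries 1666, 30.2 and 24.7 TPM. Meg3 and Snhg11 overlapped with Cre, with 50.7 to 170 and 23.97 to 54.5 TPM in mutants and 8.26 to 101 and 17.3 to 49.2 TPM in wild type, and Snhg11 was the higher of the pair in wild-type Cre replicates 1 and 3. In mutant no-Cre libraries the same 3 had medians of 11025, 262 and 104 TPM, and in wild-type no-Cre libraries 22057, 591 and 130 TPM. Rian came next, with a range of 34.5 to 195 TPM in wild-type no-Cre libraries that overlapped the 73.0 to 225 TPM of Snhg11 there. Miat (4.66 to 21.3 TPM), Mirg (2.09 to 18.0 TPM) and Neat1 (1.22 to 19.3 TPM) overlapped in that group as well, so their order among themselves does not exceed the spread. In TPM, unlike CPM, the mutant Cre and mutant no-Cre libraries overlapped for each of the 7. Malat1, for example, had 2757 to 9837 TPM in mutant Cre and 1731 to 31623 TPM in mutant no-Cre libraries. The wild-type Cre and no-Cre libraries overlapped in TPM for Neat1 and Mirg only. Meg3 had a median rank of 557.5 by TPM in mutant Cre and 708 in wild-type Cre libraries, against 41.5 in mutant no-Cre and 31 in wild-type no-Cre libraries. The 7 together made up 1.16% to 3.16% of the counts outside ribosomal RNA genes in mutant Cre and 0.709% to 2.03% in wild-type Cre libraries, against 5.18% to 24.6% in mutant no-Cre and 8.21% to 39.1% in wild-type no-Cre libraries.

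The Cre effect was negative for each of the 7 in both genotypes. In mutants it lay between -2.56 (SE 0.26, Miat) and -3.85 (SE 0.48, Mirg), and in wild type between -2.86 (SE 0.34, Neat1) and -4.22 (SE 0.64, Malat1). The wild-type Malat1 effect rests in part on wild-type no-Cre replicate 1, and without that library it was -3.27. All 7 were among the 5016 of 14468 tested genes that were lower with Cre, which is 34.7% of the genes tested, and since the choice used this contrast the count says nothing more about them. Another 3195 genes (22.1%) were higher. Over 35 alternatives of scaling, filtering and left-out libraries, the average effects of the 7 ran between -4.17 and -1.39 and none changed sign. Their size depended on the scale. With library totals alone, which count the ribosomal RNA-like genes too, the effects were -1.29 to -2.38 in mutants and -2.74 to -3.85 in wild type. On that scale the mutant Cre and mutant no-Cre libraries overlapped for all 7, and the wild-type ones for Neat1 only. These are shares of a library, so a lower level of these RNAs with Cre and a higher level of other RNA cannot be told apart, nor can fewer cells of a type and less RNA per cell. The titles open with a number of unstated meaning. In mutants, Cre and no-Cre libraries shared number 18405 (2 Cre libraries and 1 no-Cre library), where the effects of the 7 were -4.71 to -2.57. In wild type they shared 20302 (2 and 1) and 20401 (2 and 3), with effects of -6.003 to -2.63. The 7 RNAs share these libraries and were chosen by this contrast, so the signs are descriptions and the RNAs are no replicates.

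Other noncoding genes were lower with Cre as well. Of the 252 other lincRNA genes tested, 188 (74.6%) were lower with Cre and 13 were higher by edgeR's adjusted p, with a median log2 difference of -2.90. The count filter could let a gene in through the no-Cre libraries alone. By themselves these libraries passed 198 other lincRNA and 155 antisense genes, and the Cre libraries 112 and 69. A gene that enters that way can hardly be higher with Cre, so the shares, medians and places given here are descriptions. Antisense genes gave 164 lower of 237 and processed transcripts other than Rian 86 lower of 135, with medians of -2.57 and -1.98. Protein-coding genes other than Snhg11 gave 4293 lower and 3069 higher of 13311, with a median of -0.21. Among the 252 other lincRNAs, 16.3% had a more negative effect than Malat1, 33.3% than Snhg11, 49.6% than Neat1 and 52.0% than Miat. Mirg, Rian and Meg3 lay between, at 27.0%, 27.4% and 29.4%. With library totals alone, 140 of those lincRNAs were lower and 14 higher, and protein-coding genes turned to 834 lower and 3237 higher. The median over all genes was 0.39 on that scale and -0.28 with TMM. Of the other lincRNAs highest in mean TPM, Gm26870 stood at -2.71 (edgeR adjusted p = 0.0016), Gm26905 at -3.22 (adjusted p = 5.41e-06) and Gm26547 at -3.30 (adjusted p = 9.53e-10). The highest, Gm26924, is one of the ribosomal RNA-like genes and stood at -0.16 (adjusted p = 0.816).

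**Figure D2:**
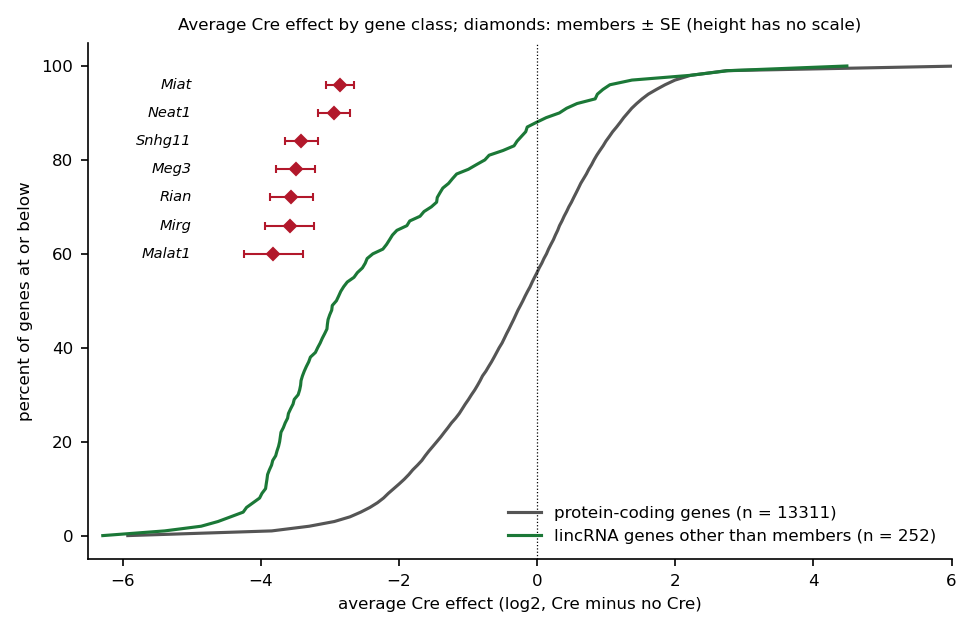
Cumulative percent of genes at or below each average Cre effect (log2, Cre minus no Cre), for 13311 protein-coding genes and 252 lincRNA genes other than the members, with the 7 members as diamonds with SE bars at heights that carry no scale. The members lie between -3.82 and -2.85, on both sides of the lincRNA median of -2.90 and left of the protein-coding median of -0.21. Genes could pass the count filter through the no-Cre libraries alone.

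The lists of related genes moved unevenly with Cre. Of 12 other named lncRNAs, 9 passed the count filter in the Cre libraries alone and 12 in the no-Cre libraries alone. A gene let in only by the no-Cre libraries can hardly rise with Cre, so the counts for this list are descriptions. Of these 12 lncRNAs, 10 fell and none rose (median -2.63). They included Rmrp (-4.29, edgeR adjusted p = 5.14e-06), the RNA of RNase MRP, Rpph1 (-3.77, adjusted p = 6.2e-06), the RNA of RNase P, and Ftx (-3.44, adjusted p = 1.38e-06), a transcript of the X-inactivation centre. Tug1, an lncRNA found in nucleus and cytoplasm, fell less (-0.92, adjusted p = 0.0242), and Airn and Pvt1 were not called (-0.46 and -0.10). Of 6 snoRNA and small host lncRNAs, 3 fell, with Gas5 at -2.10 (adjusted p = 2.35e-10), Snhg1 at -1.92 and Snhg12 at -1.65, while Snhg6 rose by 1.02 (adjusted p = 0.0353). With library totals alone only 1 of these 6 fell and none rose.

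The proteins of the nuclear bodies in which Malat1, Neat1 and Miat sit were followed through their mRNAs. Of 22 speckle protein and splicing kinase genes, 15 fell and none rose (median -0.99). The largest drops named were Clk1 (-2.70, edgeR adjusted p = 4.45e-09) and Clk4 (-2.53, adjusted p = 6.17e-08), kinases of splicing factors, and Nktr (-2.62, adjusted p = 8.46e-11), a cyclophilin-related protein. Of 18 paraspeckle protein genes, 8 fell and 1 rose (median -0.32): Sfpq fell by 0.99 on the log2 scale (adjusted p = 9.6e-06), Hnrnpk rose by 0.73 (adjusted p = 6.65e-05), and Nono, the partner of Sfpq, stood at 0.01. Of 4 genes for splicing factors that bind Miat, 2 fell. Qk, which is also high in glia, fell by 2.62 (adjusted p = 3.84e-08) and Srsf1 fell by 0.66, while Sf1, the reader of the TACTAAC copies, stood at 0.30 (adjusted p = 0.133) and Celf3 at -0.79 (adjusted p = 0.0806). With library totals alone, 3 of the 22 speckle genes fell and 2 of the 18 paraspeckle genes rose with none falling, so the direction of the paraspeckle median (0.45 there) depends on the scale.

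In the imprinted domain on chromosome 12, the neighbours did not all follow Meg3, Rian and Mirg. Dlk1, a paternally expressed membrane protein gene upstream of Meg3, stood at 0.12 (edgeR adjusted p = 0.744), and Begain, at the edge of the domain, rose by 1.19 (adjusted p = 0.00017). Rtl1, a paternally expressed retrotransposon-derived gene, fell by 1.99 (adjusted p = 1.06e-08), and B830012L14Rik, an lncRNA between Rian and Mirg, fell by 3.13 (adjusted p = 3.86e-07). Gm26945 fell by 3.78 (adjusted p = 7.36e-06), but it lies inside Rian on the same strand and may share its reads. Rtl1 has maternal transcripts on its opposite strand, and with strand not stated its reads are uncertain too.

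Glial markers moved the same way as the 7. Oligodendrocyte genes fell in 12 of 12 (median -2.25), among them Mobp (-2.50), a myelin protein, and their summed level was 828 to 7326 CPM in mutant Cre and 562 to 3149 CPM with Cre in wild type, against 7703 to 17033 CPM in mutant no-Cre and 7578 to 13942 CPM in wild-type no-Cre libraries. Astrocyte genes fell in 8 of 10 (median -2.14) and microglial genes in 8 of 10 (median -1.95). The 12 oligodendrocyte and 10 astrocyte genes passed the count filter in the Cre libraries alone and in the no-Cre libraries alone. Of the microglial genes, 4 passed in the Cre libraries alone and 10 in the no-Cre libraries alone. A gene let in only by the no-Cre libraries can hardly be higher with Cre, so the microglial count is a description. Markers of other neurons moved less evenly: 4 of 8 inhibitory neuron genes fell (median -0.77) and 3 of 4 tested excitatory interneuron genes fell (median -1.43), and none of either list was called with library totals alone. Pan-neuronal mRNAs rose in 17 of 18 (median 1.73), with Tubb3, a neuronal tubulin, at 3.23 and Stmn2, a growth-associated tubulin-binding protein, at 3.02. With library totals alone, 5 of the 12 oligodendrocyte, 3 of the 10 astrocyte and 1 of the 10 microglial genes fell, 1 astrocyte gene rose, and the same number of pan-neuronal genes, 17, rose. The part of these cells in the levels of the 7 RNAs was not tested.

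**Figure D3:**
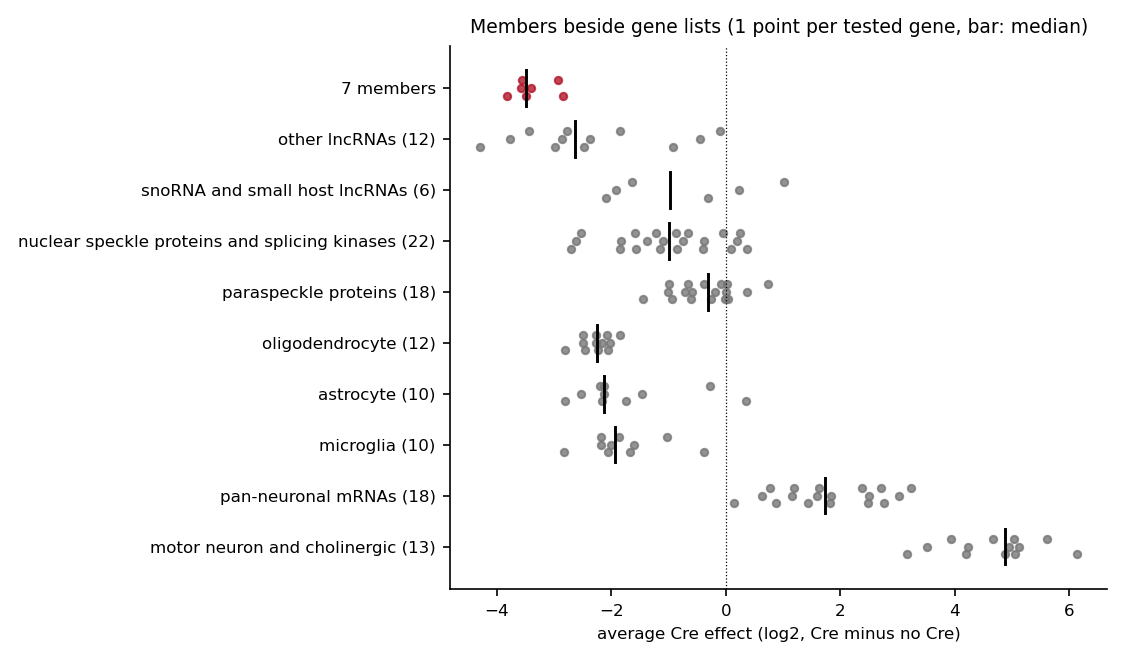
Average Cre effect (log2, Cre minus no Cre) of each tested gene in the lists, 1 point per gene with a bar at the list's median and the number of tested genes in brackets, and the 7 members in the top row. The other lncRNAs (median -2.63) and the oligodendrocyte genes (-2.25) lie on the side of the members, and the pan-neuronal (1.73) and motor neuron genes (4.87) on the opposite side. Genes could pass the count filter through the Cre or the no-Cre libraries alone.

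Between libraries of one group, Malat1 and Meg3 moved together. After the group means of log2(CPM + 1) were taken away, their Pearson correlation over the 23 libraries was 0.97, the highest that either had among 6659 genes. Dbf4, a regulator of DNA replication, came next for both (0.92), followed by Slc35e2 (0.91 with Malat1, 0.90 with Meg3). Their own average Cre effects were -3.90 and -2.34. The ratio of Malat1 to Meg3 counts was 7.14 to 11.66 in 21 libraries, 17.03 in wild-type no-Cre replicate 1 and 15.9 in mutant no-Cre replicate 5, the library with the fewest counts outside the ribosomal RNA-like genes. The other pairs of members ran between -0.20 (Neat1 with Mirg) and 0.62 (Meg3 with Snhg11). The 3 transcripts of the imprinted domain were not alike, with 0.44 for Meg3 with Rian, 0.12 for Meg3 with Mirg and -0.07 for Rian with Mirg. The genes most like the others were Cyb5r3 for Neat1 (0.91), Kcnq3 for Rian (0.81), Nudt5 for Mirg (0.83), Rpl15 for Miat (0.82) and mt-Nd6 for Snhg11 (0.81). The libraries share depth and composition in these values, and the correlations are descriptions. Single libraries led several members at once: wild-type no-Cre replicate 1 was the highest of its group for 6 of the 7 and mutant Cre replicate 5 for 5, while mutant Cre replicate 4 was the lowest for 6. Wild-type no-Cre replicate 1 also had the lowest protein-coding share of all libraries (51.5%) and the highest oligodendrocyte sum of its group (13942 CPM). Mutant Cre replicate 4 had the highest microglial sum of its group (166 CPM), an oligodendrocyte sum of 5358 CPM and a motor neuron sum of 380 CPM, where replicates 1, 2, 3 and 5 had motor neuron sums of 654 to 784 CPM. Mutant Cre replicate 6 had a higher oligodendrocyte sum (7326 CPM) and a lower motor neuron sum (244 CPM). It was the lowest of its group for 1 member and the highest for 1. Their part in the members' levels was not tested.

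The Gars allele was compared next, since the series was made to compare GarsC201R/+ with wild-type cord. None of the 7 passed the threshold between mutant Cre and wild-type Cre libraries, where 41 of 12399 tested genes (0.331%) passed edgeR's adjusted p and 2113 had an unadjusted p under 0.05. The differences, mutant minus wild type, were -0.43 (SE 0.56) for Mirg, -0.37 (SE 0.24) for Neat1, -0.37 (SE 0.18) for Miat and -0.29 (SE 0.25) for Snhg11, and 0.15 (SE 0.31) for Malat1, 0.16 (SE 0.24) for Meg3 and 0.30 (SE 0.45) for Rian. Miat came closest to the threshold, with 7.51 to 12.1 CPM in mutant Cre libraries and 8.93 to 15.9 CPM in the wild-type Cre group, which overlap (unadjusted p = 0.0663, edgeR adjusted p = 0.319). The adjusted p of the other 6 lay between 0.417 (Neat1) and 0.827 (Malat1). With library totals alone, the median of all genes in this comparison was 0.79 and the differences for Snhg11, Miat, Neat1 and Mirg turned positive. Without mutant Cre replicate 5, in which Malat1 and Rian stood apart, the differences for Malat1, Meg3 and Rian turned negative (-0.15, -0.005 and -0.27).

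Markers of other cells also differed in that comparison without being called. The median difference was 1.43 over 12 oligodendrocyte genes, 0.92 over 10 astrocyte genes and 2.40 over 4 microglial genes. It was -0.36 over 18 pan-neuronal genes and -0.71 over 13 motor neuron and cholinergic genes. Schwann cell, meningeal fibroblast, endothelial and pericyte, and erythroid genes had medians of 2.15, 1.84, 1.69 and 1.65. In each of these lists 0 genes were called. On the mutant side, replicates 4 and 6, the 2 whose titles open with 18405, stood apart. Their oligodendrocyte sums were 5358 and 7326 CPM, where the other 4 had 828 to 2191 CPM, and their motor neuron sums were 380 and 244 CPM, where the other 4 had 654 to 784 CPM. Without them the median difference was 0.03 for oligodendrocyte and -0.37 for astrocyte genes, 0.42 over 3 microglial genes and -0.18 for pan-neuronal genes, and 34 genes were called. The median was then -0.40 for motor neuron and cholinergic genes. For Schwann cell, meningeal fibroblast, endothelial and pericyte, and erythroid genes it was -1.74, -0.39, 0.33 and 0.25. The differences of the 7 kept their signs without them, between -0.39 (Neat1) and 0.59 (Rian), and none was called. Wild-type Cre replicate 2 had the highest oligodendrocyte sum of its group (3149 CPM), and without it 1054 genes passed the threshold in place of 41, with none of the 7 among them. The part of these cells in the genotype differences of the 7 was not tested.

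Without Cre, edgeR called 0 of 12588 genes (0%) between mutants and wild type, with 565 at an unadjusted p under 0.05, and DESeq2 called 0 as well. Miat had the smallest p of the 7, with 47.0 to 67.9 CPM in mutant no-Cre and 65.0 to 198 CPM in wild-type no-Cre libraries, a range that just overlaps (log2 -0.95, SE 0.30, unadjusted p = 0.0046, edgeR adjusted p = 0.951). Rian had 58.1 to 145 CPM in mutant no-Cre and 88.6 to 218 CPM in wild-type no-Cre libraries (-0.76, SE 0.31, unadjusted p = 0.0241, edgeR adjusted p = 0.951). Malat1 (-0.64, SE 0.68), Meg3 (-0.58, SE 0.43), Snhg11 (-0.48, SE 0.32), Neat1 (-0.21, SE 0.33) and Mirg (0.12, SE 0.38) had adjusted p-values of 0.951 to 0.993. The value of Malat1 rests on 1 library: without wild-type no-Cre replicate 1 it was 0.29.

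Whether the Gars allele acted differently on the members with Cre and without was tested as the difference of the 2 genotype effects, in which 3 of 14468 genes (0.0207%) passed edgeR's threshold and 1524 had an unadjusted p under 0.05. None of the 7 passed. The differences were 1.06 (SE 0.56) for Rian, 0.80 (SE 0.75) for Malat1, 0.75 (SE 0.50) for Meg3, 0.58 (SE 0.36) for Miat, 0.19 (SE 0.42) for Snhg11, -0.15 (SE 0.43) for Neat1 and -0.53 (SE 0.65) for Mirg. The smallest adjusted p, that of Rian, was 0.498. No lincRNA gene was called in any of the 3 genotype comparisons, over 117 tested with Cre, 203 without Cre and 257 for the difference. Within title numbers 20302 and 20401, each with 2 mutant and 2 wild-type Cre libraries, the genotype effects of the 7 ran from -0.52 to 1.57. Within 20301, with 4 mutant and 2 wild-type no-Cre libraries, they ran from -0.92 to 0.04. The 7 RNAs share these libraries, so they are no replicates of each other.

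**Figure D4:**
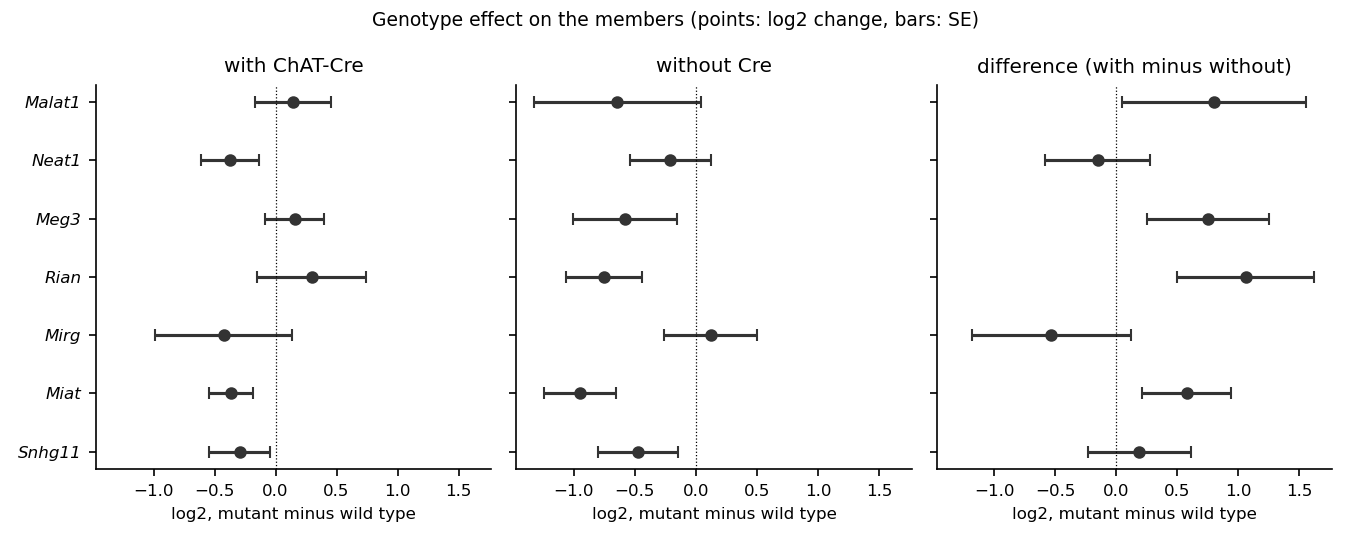
Genotype effect on the 7 RNAs (log2, mutant minus wild type) with Cre, without Cre, and the difference between them, as points with SE bars. The values run from -0.43 to 0.30 with Cre and from -0.95 to 0.12 without Cre, and none of the 21 passed the adjusted threshold.

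The tables also give each gene's length, averaged over its transcripts by their estimated abundance, so a shift in which isoforms were counted shows as a shift in length. Snhg11 had median lengths of 2289 bases in mutant Cre and 2057 bases in wild-type Cre libraries, against 4527 bases in mutant no-Cre and 5650 bases in wild-type no-Cre libraries. Of the 12 no-Cre libraries, 9 had a longer Snhg11 than every Cre library, and 4 of the 11 Cre libraries had a shorter one than every no-Cre library. Its annotated transcripts have 687, 786, 1329, 3156 and 5864 bases. The longest is the one typed as protein-coding, and the 687 and 3156 base forms are typed as retained introns. Miat had 4029 to 8929 bases in mutant Cre and 4784 to 8941 bases in wild-type Cre libraries, against 8758 to 8849 bases in mutant no-Cre and 8260 to 8797 bases in wild-type no-Cre libraries, and 5 Cre libraries were below all no-Cre ones. Malat1 kept median lengths of 1671 and 1910 bases in mutant Cre and wild-type Cre libraries, and 2001 and 1857 bases in mutant no-Cre and wild-type no-Cre libraries, well under its 6983-base transcript. GENCODE M21 lists 3 other Malat1 transcripts, of 485, 556 and 656 bases, and counts per transcript were not used here. Meg3 had medians of 8228 to 8785 bases in the 4 groups. These Cre values come from the contrast that chose the members and are descriptions.

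Between the genotypes with Cre, limma on log2 length called 2 of 4054 genes (0.0493%), with 427 at an unadjusted p under 0.05, and none of the 6 members that could be tested. On the log2 scale, mutant minus wild type, Malat1 stood at -0.24 (SE 0.13, limma adjusted p = 0.512), Miat stood at -0.21 (SE 0.24), Meg3 at -0.09 (SE 0.06), Snhg11 at 0.19 (SE 0.32), Neat1 at 0.09 (SE 0.33) and Rian at 0.08 (SE 0.16). Mirg had too few counts for the test.

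**Figure D5:**
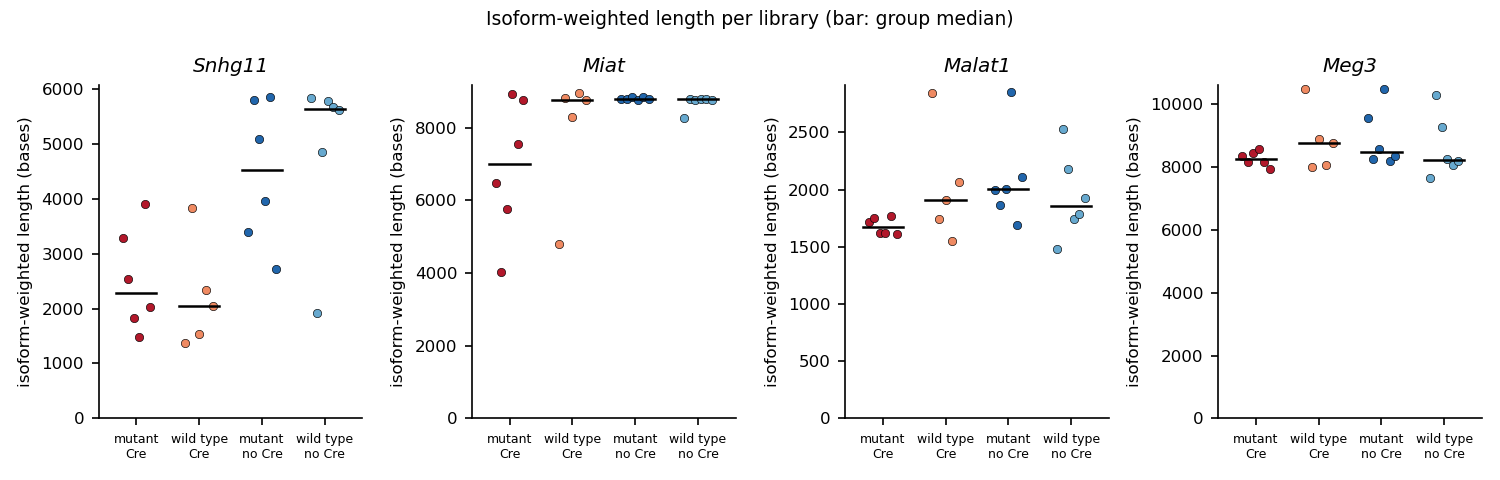
Abundance-weighted length in bases of Snhg11, Miat, Malat1 and Meg3, 1 point per library with a bar at the median of each group, mutant Cre, wild-type Cre, mutant no-Cre and wild-type no-Cre from left to right. The Snhg11 points with Cre (medians 2289 and 2057) sit low against those without Cre (4527 and 5650), and Malat1 and Meg3 overlap in all groups.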

How the data were processed

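RNA from 23 anti-HA precipitates was sequenced, and the authors deposited a table per library with expected counts, TPM, FPKM and length for each gene. Bowtie2 2.2.0 and RSEM 1.2.12 are named in the submitters' processing notes. The genome build is not given in the sources used here. Expected counts are RSEM's estimates and were rounded to whole numbers; the deposited TPM and FPKM are per length, and FPKM was not used. Of 38924 gene IDs, 37607 matched GENCODE M21. Genes passing filterByExpr (10 counts in enough libraries, 15 in all) were tested with edgeR 4.0.16 quasi-likelihood fits, TMM scaling and Benjamini-Hochberg adjustment at 0.05. Genotypes were compared pairwise, Cre effects in all 23 libraries. Log2 length was fitted with limma 3.58.1 for genes with at least 20 counts in every library. DESeq2 1.42.0, other scalings, filters, TPM with pseudocounts of 1 and 0.1, a title-number block and left-out libraries were alternatives. The procedures were tested on simulated data. Named list genes are the 4 with the smallest p in each list, with others the text needs chosen after their values were seen. The members and lists were chosen with earlier results of these data known. Ribosomal RNA-like genes (mt-Rnr1, mt-Rnr2, Gm26924, Gm15662 and Lars2) stayed in the tests. Replicates were distinct libraries: over 55 pairs within groups the smallest chi-square per degree of freedom was 9.15. Replicate numbers follow accession order and pair nothing.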

Additional observations from a re-analysis of the deposited data

Results flagged for a closer look

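Of 28 combinations of a member and a group, 7 held a library set far apart from the rest of its group by Dixon's 95% criterion. Chance meets that criterion in about 1 of 20 groups when values are normally spread and groups are independent. The values here are CPM without a log and the members share libraries, so the 7 cannot be set against that rate. Malat1 reached 5784 CPM in mutant Cre replicate 5, where the other 5 libraries had 1816 to 2917 CPM, and Rian reached 30.5 CPM in the same library, where the others had 3.99 to 11.9 CPM. Malat1 reached 80317 CPM in mutant no-Cre replicate 5, where the others had 13447 to 29199 CPM, and Meg3 reached 5047 CPM there against 1787 to 2804 CPM in the others. That library has the fewest counts outside ribosomal RNA genes, 594383. Malat1 reached 168528 CPM in wild-type no-Cre replicate 1, where the others had 18751 to 38109 CPM, and Meg3 reached 9895 CPM there against 2302 to 4152 CPM. Snhg11 was low in mutant no-Cre replicate 6, at 279 CPM, where the others had 442 to 538 CPM. Leaving out any single library kept the average Cre effect of Malat1 between -3.91 and -3.35, and that of Meg3 between -3.58 and -3.26.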

How the results depend on the processing

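The average Cre effect kept its sign for the 7 RNAs under each of 35 alternatives; it moved beyond 1 SD in 17 of 245 values, with library totals alone or TPM. Over all genes, library totals gave 4731 calls (3381 higher, 1350 lower) and a mean of at least 5 CPM gave 4398, against 8211. With Cre, the genotype calls (41) became 17 with library totals, 413 with DESeq2, 89 without a filter, 19 with the title number as a replicate block, 17 without the low-depth libraries (chosen after seeing the data), 11 with all libraries in 1 fit, and 10 to 1054 with 1 library left out (10 without wild-type Cre replicate 3, 1054 without wild-type Cre replicate 2). Without Cre, 31 genes were called without a filter. For the difference (3), library totals gave 1, DESeq2 42, no filter 9, the low-depth set out 1, the block 2, and 1 library left out 1 to 8. For length (2), at least 50 counts gave 0, leaving out the libraries whose titles open with 18405 (chosen after seeing the data) gave 0, and 1 library left out 0 to 120. No member passed under any of these. Genotype effects of members changed sign with Cre under library totals (Snhg11 0.51, Miat 0.44, Neat1 0.41, Mirg 0.47), the replicate block (Mirg 0.0505) and the low-depth set out (Malat1 -0.0097). With 1 library left out they ran from -0.005 to 0.362 for Meg3, -0.146 to 0.321 for Malat1 (-0.0097 without wild-type Cre replicate 1) and -0.27 to 0.51 for Rian. Without Cre, Mirg became -0.36 with totals, -0.0208 with the block and -0.41 with the low-depth set out, and ran from -0.25 to 0.301 with 1 library left out, where Malat1 ran from -1.19 to 0.29. For the difference, Neat1 became 1.00 and Mirg 0.83 with totals, and 0.0073 and 0.27 with the low-depth set out. With 1 library left out the difference ran from -0.11 to 0.346 for Snhg11, -0.15 to 1.33 for Malat1 and -0.296 to 0.072 for Neat1, and the Neat1 length from -0.0783 to 0.313. The causes were not tested. The title number shares libraries between groups, but its meaning is not stated, so the block is no pairing.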
